A study of Mus musculus with 14 samples.

Results

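Oxidative phosphorylation subunits encoded in the nucleus were followed as a group of 85 genes, out of 20492 gene symbols measured in mouse cortex and hippocampus with or without depletion of TRF2. Members were chosen by name, with earlier results of these data known. They are genes whose symbol starts with Ndufa, Ndufb, Ndufc, Ndufs or Ndufv and a digit. Also included are Ndufab1, Sdha to Sdhd, the Uqcr genes, Cyc1, and the Cox4 to Cox8 and Atp5 genes. The group holds 36 subunits of complex I, 4 of complex II, 9 of complex III, 20 of complex IV and 16 of complex V. Ndufa4 and Ndufa4l2 were counted with complex IV, to which the NDUFA4 protein is assigned. Assembly factors with matching names (Ndufaf1 to Ndufaf7, Sdhaf1, Sdhaf2 and Atp5sl, 10 names in all) were left out.

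Oxidative phosphorylation takes place in the inner mitochondrial membrane, where complexes I and II pass electrons from NADH and succinate to coenzyme Q, complex III passes them to cytochrome c and complex IV to oxygen, and complex V, the ATP synthase, uses the proton gradient built on the way. Most subunits are made from nuclear genes and imported, and a small set comes from the mitochondrial genome, so that complexes I, III, IV and V mix products of both. Neurons draw most of their ATP from this pathway.

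The study compared control (wild-type) C57BL/6 mice aged 3 months with TRF2-depleted mice, TRF2 being the shelterin protein of chromosome ends encoded by Terf2. Cre expression in these mice is driven by Dcx, per the series' design text, and Dcx is active in young neurons. Which cells had lost Terf2 by the age sampled was not tested. The labels give 4 control and 3 TRF2-depleted cortex samples, 3 control and 3 TRF2-depleted hippocampus samples, and 1 further TRF2-depleted sample, of 14 in all, whose labels name both tissues. It was placed in no group, and whether the authors pooled it into either tissue is unknown. The hippocampus table also holds a condition named DKO, which no label describes, and whose genotype and sample number the sources used here leave unstated. The FPKM values, which scale fragments by transcript length and by library total, were pooled by the authors into 1 per condition, so that no error between replicates can be given and read depth is unknown. The authors' own test is the only measure of replicate spread, calls were made where the deposited q reached 0.05 or less, and a gene counted as measured with at least 1 FPKM in either group. A gene near this minimum can therefore enter the counts only through the group where it is higher, among the members and among all genes. The labels do not tie samples to animals, so these p-values measure only the spread between samples.

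Terf2 summed to 3.59 (Con) and 0.202 FPKM (TRF2) in cortex and to 2.01, 0.883 and 0.753 FPKM in the control, TRF2 and DKO conditions of hippocampus, where the authors did not test it. Tissue labels were checked against marker lists: dentate granule neuron markers summed to 138 FPKM in control hippocampus and 80.5 FPKM in control cortex, with the granule neuron gene Dsp at 3.27 and 0.0372 FPKM, while cortical neuron markers summed to 30.8 and 103 FPKM. FPKM over all rows summed to between 159494 and 171147 per condition. None of the 13 subunits encoded in the mitochondrial genome has a row in the files used here, so they were not analysed here.

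In the controls the subunits were abundant, with a median of 61.9 FPKM in cortex and 49.1 FPKM in hippocampus, and together they made up 4.07% and 3.55% of the summed FPKM. By mean FPKM over the 5 conditions, the most abundant members of complex I were Ndufa3, an accessory subunit (161 FPKM in cortex and 207 FPKM in hippocampus), and Ndufb9, another (123 and 109 FPKM). The deposited hippocampus locus of Ndufa3 also holds Tfpt. Complex II was led by Sdha, its flavoprotein (68.3 and 68.9 FPKM), and Sdhb, its iron-sulphur subunit (4.29 and 46.7 FPKM). Complex III was led by 2 small subunits, Uqcr10 (125 and 124 FPKM) and Uqcr11 (123 and 115 FPKM). Complex IV was led by the small membrane subunits Cox8a (376 and 291 FPKM) and Cox6c (275 and 279 FPKM). Complex V was led by Atp5b, the catalytic beta subunit (270 and 266 FPKM), and Atp5g3, a source of the membrane ring subunit c (165 and 180 FPKM). At the low end of each complex by mean FPKM stood Ndufa11 (9.20 and 10.5 FPKM), Sdhc (1.46 and 38.2 FPKM), Uqcrc2 (63.8 and 27.3 FPKM), Cox8c (listed at 0 in all 5 conditions) and Atp5s (0.784 and 6.45 FPKM). The subunits leading by this mean stood at like levels in both control tissues apart from Sdhb. The mean spans both tissues and so favours genes that are high in both. Cox4i1 (339 FPKM in cortex and 5.05 FPKM in hippocampus) exceeded Cox6c in control cortex but did not lead by it. The tables were normalised separately and levels across them were not tested.

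Complex IV has alternative isoforms, some of them known from heart and skeletal muscle, and most families were led by 1 or 2 forms. Cox6a1 stood at 185 and 197 FPKM in control cortex and hippocampus, against 3.15 and 1.44 FPKM for Cox6a2, the heart and muscle form. Cox6b1 stood at 230 and 211 FPKM, against 0.996 and 1.85 FPKM for Cox6b2, known from testis. Among the Cox7a forms, Cox7a2 (85.8 and 60.0 FPKM) and the related Cox7a2l, a factor of supercomplex assembly (60.0 and 65.4 FPKM), exceeded Cox7a1, the heart and muscle form (1.49 and 4.09 FPKM). Cox8a likewise exceeded Cox8b (0.353 and 0.790 FPKM), and Ndufa4 (196 and 238 FPKM) exceeded Ndufa4l2 (1.57 and 1.25 FPKM). The 3 genes that encode subunit c of the ATP synthase were all well expressed, with Atp5g1 at 77.7 and 22.4 FPKM, Atp5g2 at 72.7 and 68.3 FPKM and Atp5g3 above both. Cox4i1, the common form of a regulatory subunit of complex IV, stood at 339 FPKM in cortex and 5.05 FPKM in hippocampus, against 0.834 and 0.431 FPKM for Cox4i2, a form known from lung and from low oxygen. Cox7b stood at 76.9 and 0.00365 FPKM against 0.244 and 0.285 FPKM for Cox7b2, so the order of this pair was reversed in the hippocampus table.

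Cox4i1 was 1 of 8 members whose control levels lay more than 4-fold apart between the tables. Cox7b (76.9 FPKM in cortex and 0.00365 FPKM in hippocampus) and Ndufb3 (61.9 and 2.18 FPKM) were also lower in the hippocampus table. Ndufab1 (0.716 and 21.8 FPKM), Sdhb, Sdhc and Atp5s were higher in it. Of 81 members with at least 1 FPKM, 67 (82.7%) lay within 2-fold and 8 (9.88%) over 4-fold apart, against 6.19% over 4-fold for 11414 genes in all. With at least 30 FPKM the shares over 4-fold were 8.45% of 71 members and 4.74% of 1140 genes. Cox7b, Ndufb3 and Ndufab1 are among 18 members with a near-identical pseudogene copy in the mouse genome, and Ndufab1 differed in the opposite direction to the others. Cox4i1, Sdhb, Sdhc and Atp5s have no such copy. The part the copies play in the levels was not tested.

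**Figure D1:**
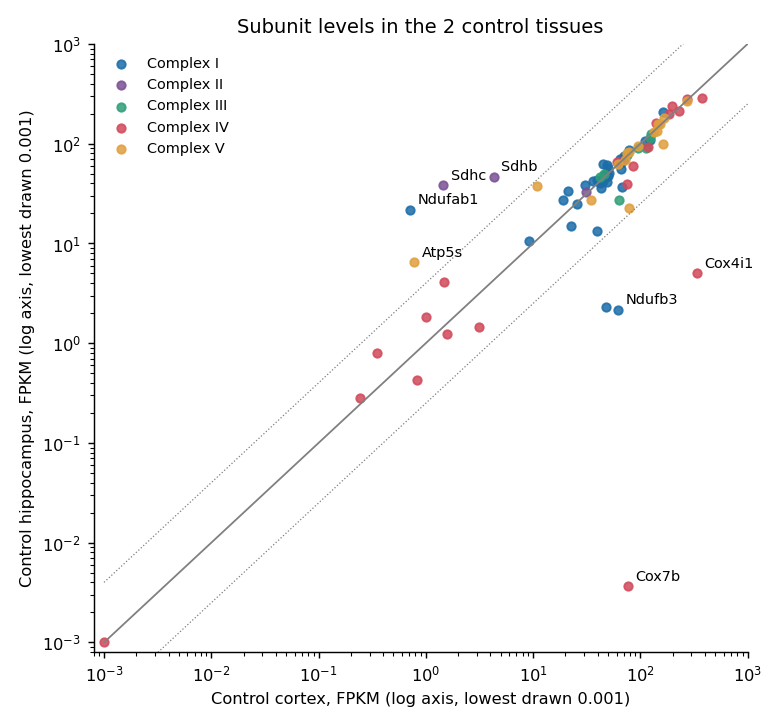
FPKM of the 85 subunits in control cortex (horizontal, log axis) and control hippocampus (vertical, log axis), 1 point per gene, coloured by complex, with values below 0.001 drawn at 0.001. The solid line marks equal levels and the dotted lines 4-fold differences, and 8 genes lie outside them, 7 of them named, with Cox4i1 at 339 and 5.05 FPKM.

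In cortex, TRF2-depleted and control samples gave nearly the same summed subunit level. The summed FPKM of the group was 6578 in the control and 6575 in the depleted cortex, 40 of 81 measured members were higher and 41 lower, and 44.8% of all measured genes were higher. The median log2 ratio, TRF2-depleted over control, was -0.001 for the members and -0.03 for all genes. None of 76 tested members was called, against a background of 0.335% of tested genes, and 5 had an unadjusted p under 0.05, against 6.81%. Of these, 3 were higher and 2 lower, beside 2.28% and 4.6% of tested genes. By complex the median log2 ratio was -0.003 for I, -0.10 for II, -0.03 for III, 0.05 for IV and 0.01 for V.

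The 5 cortex members did not share a direction. Cox7b, a small subunit of complex IV, stood at 76.9 FPKM without and 95.9 FPKM with TRF2 depletion (p = 0.00195, q = 0.1004 in the authors' deposited table). Cox8a, of the same complex, stood at 376 and 326 FPKM (p = 0.0271, q = 0.375 in the authors' deposited table). In complex III, Uqcr10 stood at 125 and 101 FPKM (p = 0.0137, q = 0.282) and Uqcrb, a subunit near the coenzyme Q site, at 75.3 and 90.9 FPKM (p = 0.0287, q = 0.382) in the authors' deposited table. Both complexes thus held 1 higher and 1 lower member at this threshold. Ndufc1, a complex I accessory subunit, stood at 66.6 and 82.2 FPKM (p = 0.0379, q = 0.424 in the authors' deposited table).

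Among cortex members with at least 5 FPKM, the largest positive log2 ratios were those of Ndufa7, a complex I accessory subunit (48.9 and 71.0 FPKM, log2 ratio 0.54, p = 0.0609), and Atp5l, subunit g of the ATP synthase (34.6 and 48.2 FPKM, log2 ratio 0.48, p = 0.280), in the authors' deposited table. The most negative were those of Uqcr10 (-0.31) and Ndufa11, a membrane subunit of complex I (9.20 and 7.79 FPKM, log2 ratio -0.24, p = 0.0960 in the authors' deposited table). Choroid plexus markers summed to 139 FPKM in control cortex and 40.9 FPKM after TRF2 depletion, with 0 of 4 measured higher and Otx2 listed at 0 in the latter. Ttr, the transthyretin gene, made up most of the control sum and was called lower, at 93.3 FPKM in control and 1.148 FPKM in depleted cortex, where the authors' deposited table gives q = 0.00864. Striatal neuron markers summed to 49.7 and 65.3 FPKM with 6 of 6 higher, and Penk was at 0.0000352 and 0 FPKM. Oligodendrocyte markers summed to 789 and 715 FPKM with 2 of 8 higher. The part of these lists in the subunit values was not tested.

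In hippocampus, the subunits were mostly higher in the TRF2-depleted condition, by a small amount. Their summed FPKM was 5962 in control and 6676 after depletion, 3.55% and 3.95% of all FPKM. Of 81 measured members 67 (82.7%) were higher and 14 lower, while 50.3% of all measured genes were higher, and the median log2 ratio was 0.11 for the members, equal to 8.22% more FPKM, and 0.00 for all genes. Cox8b (0.790 and 2.62 FPKM), among the higher members, reached 1 FPKM only in the TRF2 condition. Of 79 tested members 1 was called, against 0.183% of tested genes, and 10 had an unadjusted p under 0.05, against 5.45%. Of these, 8 were higher, against 2.73% of tested genes, and 2 lower, against 2.77%. In bulk tissue, a change in the number of cells of a type and a change in RNA per cell cannot be told apart.

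The called member was Cox7c, a small membrane subunit of complex IV (chr13:86044798-86046795, mm10). It rose from 39.3 to 67.8 FPKM, a log2 ratio of 0.79 (p = 5e-05, q = 0.0301 in the authors' deposited table), and the p is the smallest the table holds. The DKO condition stood at 60.5 FPKM, also above control, while the cortex conditions stood at 75.5 and 79.1 FPKM. Control hippocampus was thus the lowest of the 5 conditions for this gene. Cox7c has 2 near-identical pseudogene copies in the mouse genome, and how reads that match them were counted is unstated in the sources used here.

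The other complex IV members with an unadjusted p under 0.05 were Cox6a1, at 197 FPKM in Con and 251 FPKM in TRF2 (p = 0.00575, q = 0.505), and Cox8a, at 291 and 359 FPKM (p = 0.0147, q = 0.721), in the authors' deposited table. Complex IV held 15 of 16 measured members higher, a median log2 ratio of 0.23, and a summed FPKM of 1651 in Con and 1974 in TRF2. The 15 include Cox8b, measured only through its TRF2 value. The 1 lower member was Cox7a1, at 4.09 and 1.85 FPKM (with p = 0.117 in the authors' deposited table). Cox4i1, from its low control level, stood at 5.05 and 21.0 FPKM, a log2 ratio of 2.05 that did not pass (p = 0.135 in the authors' deposited table). In cortex Cox6a1 and Cox8a stood lower in the TRF2-depleted group, at 185 and 164 FPKM and at 376 and 326 FPKM, and no difference between tissues was tested.

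In complex I, 28 of 36 members were higher and the median log2 ratio was 0.10. Ndufa1, an accessory subunit encoded on the X chromosome, stood at 41.6 and 59.9 FPKM (p = 0.00210, q = 0.359 in the authors' deposited table). Ndufa2, also accessory, stood at 36.4 and 50.8 FPKM (p = 0.00670, q = 0.549 in the authors' deposited table), and its deposited locus also holds Tmco6. Ndufa12, an accessory subunit of the matrix arm, stood at 36.7 and 49.8 FPKM (p = 0.0414, q = 0.886 in the authors' deposited table). These 3 had DKO values of 51.0, 53.2 and 48.9 FPKM, each above its control. Ndufb3, an accessory subunit of the membrane arm, had the largest log2 ratio of the group, 2.26, from 2.18 to 10.4 FPKM, without passing (p = 0.299 in the authors' deposited table).

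In complex III, Uqcr11 stood at 115 and 144 FPKM (p = 0.0218, q = 0.803) and Uqcrc2, a matrix-side subunit without a redox centre, at 27.3 and 13.2 FPKM, a log2 ratio of -1.05 (p = 0.0116, q = 0.661), in the authors' deposited table. The deposited locus of Uqcrc2 also holds Pdzd9. In complex II, Sdhd, a membrane anchor, stood at 33.1 and 26.4 FPKM, a log2 ratio of -0.33 (p = 0.0237, q = 0.810 in the authors' deposited table), while Sdha stood at 68.9 and 70.2 FPKM. In complex V, Atp5l stood at 27.3 and 56.8 FPKM, a log2 ratio of 1.05 (p = 0.00445, q = 0.472 in the authors' deposited table), and it has 7 near-identical pseudogene copies, the most of any member. The medians were 0.04 for complex II (3 of 4 higher), 0.09 for III (6 of 9) and 0.10 for V (15 of 16), so complex V was as one-sided as complex IV with a smaller median.

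**Figure D2:**
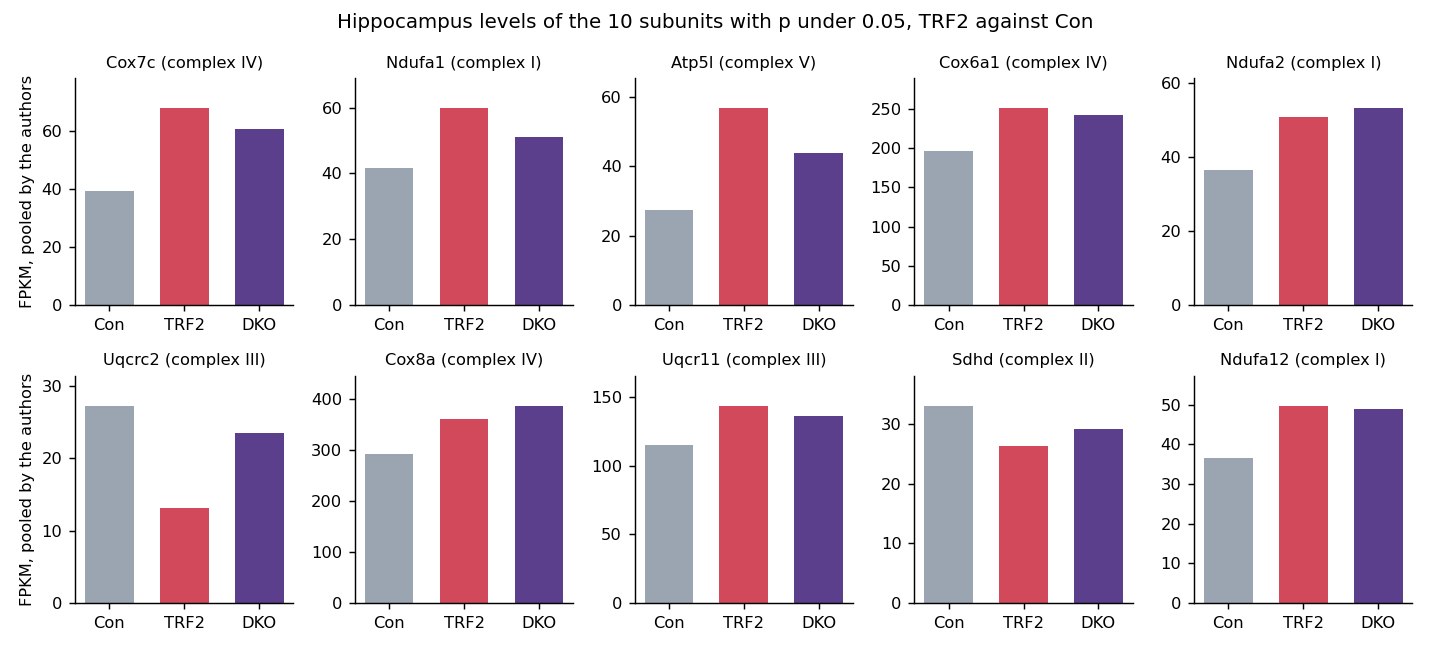
FPKM, pooled by the authors, of the 10 subunits with an unadjusted deposited p under 0.05 between the TRF2 and Con conditions of hippocampus, with bars for Con, TRF2 and DKO, each axis starting at 0 and no error bars because each condition has 1 value. Cox7c stands at 39.3, 67.8 and 60.5 FPKM, and 2 of the 10, Uqcrc2 and Sdhd, have their highest bar in Con.

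The DKO condition shares its controls with the TRF2 comparison, so the values of both are given side by side and not as separate evidence. Against control, 71 of 82 measured members were higher in DKO, with a median log2 ratio of 0.18, equal to 13.7% more FPKM, while 52.1% of all measured genes were higher with a median of 0.01. Among the higher members, Cox4i2 (0.431 and 1.003 FPKM) and Cox8b (0.790 and 1.23 FPKM) reached 1 FPKM only in DKO. The summed FPKM of the members was 6895. None of 79 tested members was called, against 0.204% of tested genes, and 19 had an unadjusted p under 0.05, against 7.48%. All 19 were higher, against 4.31% of tested genes that were higher at this p and 3.23% that were lower. The lowest q of a member was 0.0919. The TRF2 comparison gave 8 higher and 2 lower at this p.

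In complex IV, 6 of 14 tested members had a p under 0.05 in DKO over control and the median log2 ratio was 0.30. Cox7c stood at 39.3 and 60.5 FPKM (p = 0.000200, q = 0.0919), Cox8a at 291 and 386 FPKM (p = 0.000450, q = 0.162) and Cox5b, a subunit that binds zinc, at 163 and 206 FPKM (p = 0.00480, q = 0.483), in the authors' deposited table. Cox6a1 (197 and 242 FPKM, p = 0.0127), Cox6b1 (211 and 257 FPKM, p = 0.0172) and Cox7a2 (60.0 and 73.3 FPKM, p = 0.0352) complete the 6 in the authors' deposited table. In the TRF2 condition Cox8a (359 FPKM), Cox5b (191 FPKM), Cox6b1 (244 FPKM) and Cox7a2 (69.9 FPKM) stood between control and DKO, while Cox7c (67.8 FPKM) and Cox6a1 (251 FPKM) stood above both.

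In complex I, 9 of 36 members had a p under 0.05 in DKO over control and the median log2 ratio was 0.17. The accessory subunits Ndufb6 (55.6 and 78.4 FPKM, p = 0.000500, q = 0.169), Ndufa5 (56.8 and 79.7 FPKM, p = 0.000650, q = 0.197), Ndufa2 (36.4 and 53.2 FPKM, p = 0.00150, q = 0.314) and Ndufb7 (49.1 and 67.7 FPKM, p = 0.00185, q = 0.344) led by p in the authors' deposited table. Others were Ndufb9 (109 and 135 FPKM, p = 0.0113), Ndufs5 (13.4 and 30.7 FPKM, p = 0.0134), 1 row of Ndufv3 (41.4 and 53.1 FPKM, p = 0.0397) and Ndufa13 (42.7 and 50.8 FPKM, with p = 0.0453) in the authors' deposited table. Those named here are accessory subunits, and each stood higher in DKO. The deposited locus of Ndufa13 also holds Tssk6. The most negative log2 ratio, -0.42, was that of Ndufs4, an accessory subunit whose loss causes Leigh syndrome in humans (15.1 and 11.3 FPKM, with p = 0.120 in the authors' deposited table), and Ndufb3 again had the largest (2.18 and 14.6 FPKM, log2 ratio 2.75, p = 0.191 in the authors' deposited table).

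In complex III, Uqcr10 stood at 124 and 161 FPKM (p = 0.00385, q = 0.441) and Uqcrh, the hinge protein beside cytochrome c1, at 91.5 and 125 FPKM (p = 0.0420, q = 0.886) in control and DKO in the authors' deposited table. In complex V, Atp5o, the stalk subunit OSCP, stood at 94.1 and 118 FPKM (p = 0.00770, q = 0.575) and Atp5j2, subunit f, at 134 and 162 FPKM (p = 0.0291, q = 0.846) in the authors' deposited table. Medians were 0.16 for both complexes, with 8 of 9 and 15 of 16 members higher. Complex II had a median of 0.04 with 2 of 4 higher and no member with a p under 0.05. Atp5s, coupling factor B, had a log2 ratio of -0.26 (6.45 and 5.37 FPKM, with p = 0.218 in the authors' deposited table), and Cox4i1 one of 1.91 (5.05 and 19.0 FPKM, with p = 0.165 in the authors' deposited table).

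Set against each other, DKO and TRF2 gave smaller ratios. The median log2 ratio, DKO over TRF2, was 0.03 over 82 measured members with 48 higher (58.5%), against 0.01 and 52.2% for all genes. Cox4i2 (0.318 and 1.003 FPKM), among the higher members, reached 1 FPKM only in DKO. None of 79 tested members was called, against 0.173%, and 4 had a p under 0.05, against 5.37%. All 4 were higher, against 3.27% of tested genes higher and 2.11% lower. These were Ndufb7 (48.0 FPKM in TRF2 and 67.7 FPKM in DKO, p = 0.001, q = 0.263), Ndufa5 (62.3 and 79.7 FPKM, p = 0.0134), Uqcrh (85.01 and 125 FPKM, p = 0.0142) and Ndufa13 (42.7 and 50.8 FPKM, with p = 0.0437) in the authors' deposited table. Complex I had a median of 0.07 with 25 of 36 higher and complex IV one of -0.10 with 6 of 17 higher. Among members with at least 5 FPKM in either condition, the largest log2 ratios were 0.84 for Uqcrc2 (p = 0.146) and 0.70 for Ndufs5 (p = 0.0989), and the most negative were -0.37 for Atp5l (p = 0.314) and -0.35 for Atp5g1 (p = 0.526), with p-values from the authors' deposited table.

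**Figure D3:**
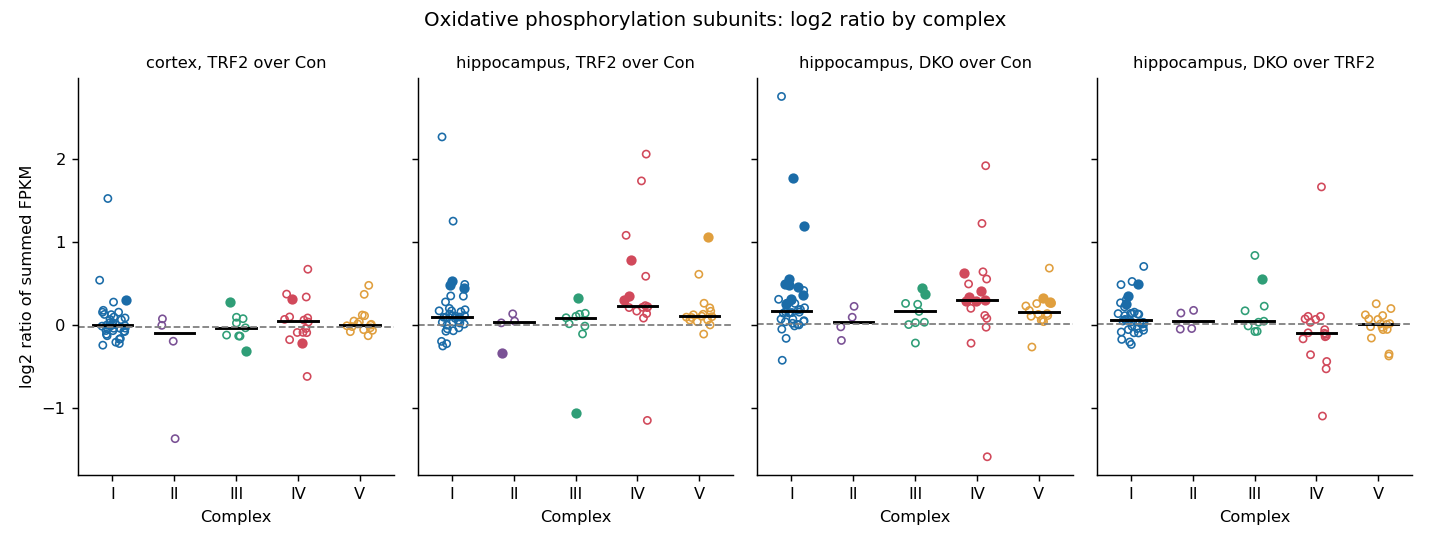
Log2 ratio of summed FPKM for each measured subunit (vertical) by complex (horizontal) in the 4 comparisons. Each circle is 1 gene, filled where the deposited p was under 0.05, black bars are medians and the dashed line is the median of all genes. Complex IV has the highest bar in both comparisons with control hippocampus, at 0.23 and 0.30, and sits at 0.05 in cortex.

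Accessory subunits, which were 55 of the 79 tested members in hippocampus, carried most of the p-values under 0.05. Core subunits were taken as 24 genes of the catalytic and electron-carrying parts, a list made after the values were seen. In TRF2-depleted over control hippocampus, 0 of 24 tested core subunits and 8 of 55 tested accessory subunits had a p under 0.05 and were higher, beside 2.73% of all tested genes. At this p 1 core subunit, Sdhd, and 1 accessory subunit, Uqcrc2, were lower, beside 2.77% of all tested genes. In DKO over control the counts were 2 of 24 and 17 of 55, beside 4.31% of all tested genes. Median log2 ratios were 0.09 for core and 0.17 for accessory subunits with TRF2, and 0.12 and 0.25 with DKO, while cortex gave -0.02 and 0.03 and DKO over TRF2 gave 0.05 and 0.03. The difference between the classes was not tested.

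Many subunits are short. The median coding length of the 85 members was 137 codons against 413 codons for all genes with an annotated length, from 52 codons for Atp5e, the epsilon subunit of ATP synthase, to 727 codons for Ndufs1, the largest subunit of complex I. In TRF2-depleted over control hippocampus the median log2 ratio was 0.21 for 20 members under 100 codons, 0.17 for 26 members from 100 to under 150, 0.07 for 18 from 150 to under 250, and 0.06 for 17 of 250 or more. All genes in the same classes had medians of 0.13, 0.06, 0.05 and -0.01, and 187 genes under 100 codons that encode no subunit had a median of 0.12, with 129 higher. DKO over control gave 0.28, 0.25, 0.16 and 0.05 for the members and 0.13, 0.09, 0.05 and 0.00 for all genes. Spearman's rho between length and log2 ratio was -0.43 over 81 members and -0.14 over 11177 genes for TRF2, and -0.35 and -0.10 for DKO. These are descriptions across genes that share the same libraries.

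Other short and abundant genes also had medians above 0 in hippocampus. Among genes under 150 codons with at least 30 FPKM, the median log2 ratio with TRF2 in hippocampus was 0.17 for 37 members (33 higher) and 0.07 for 176 other genes (124 higher). With DKO it was 0.26 for 37 members (36 higher) and 0.13 for 175 others (136 higher). With DKO over TRF2 it was 0.03 for 38 members (22 higher) and 0.04 for 184 others (114 higher). In cortex the values were 0.03 for 39 members (23 higher) and -0.02 for 180 others (81 higher). Library preparation and fragment length, which bear on short transcripts, were not compared between groups here, and their part was not tested. Members with a near-identical pseudogene copy had a median of 0.20 with TRF2 in hippocampus (17 measured) and those without one 0.11 (64 measured).

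**Figure D4:**
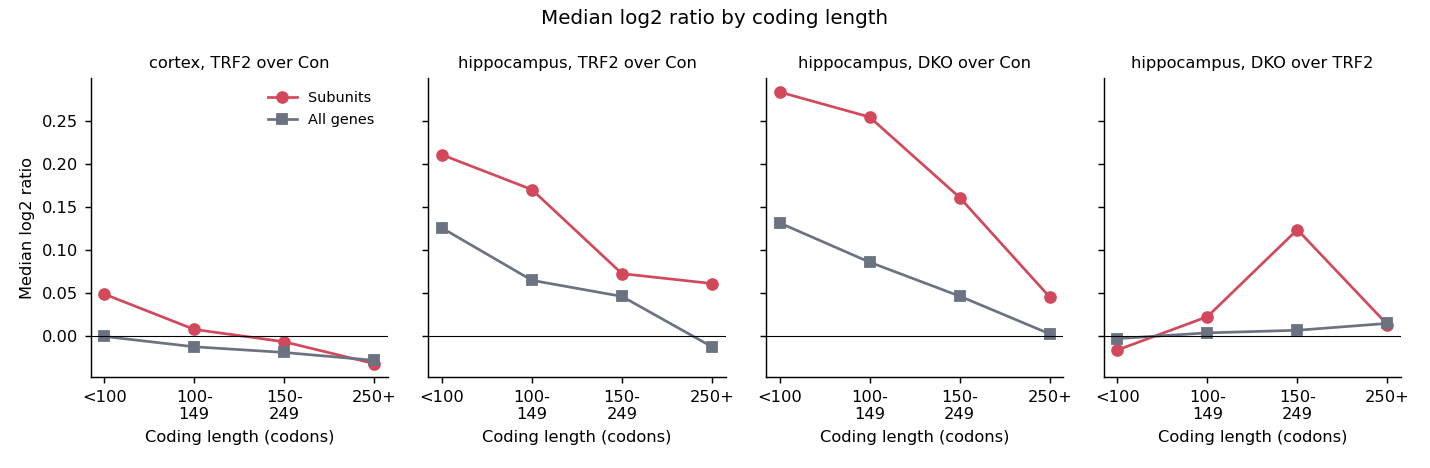
Median log2 ratio (vertical) by coding length class in codons (horizontal) for the subunits (circles) and all measured genes (squares) in the 4 comparisons. In hippocampus with TRF2 the subunits go from 0.21 in the shortest class to 0.06 in the longest and all genes from 0.13 to -0.01, while in cortex every class lies between -0.03 and 0.05.

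Markers of other cells moved between the hippocampus conditions as well. Choroid plexus markers summed to 317 FPKM in control, 540 FPKM in TRF2 (8 of 8 measured higher) and 22.1 FPKM in DKO (0 of 7 measured higher, 3 of them called lower), where Aqp1 was at 0.0683 FPKM. Ttr alone stood at 264, 472 and 5.52 FPKM, most of the sum in control and TRF2. Meningeal fibroblast markers summed to 197, 310 and 319 FPKM (7 of 7 and 6 of 7 higher), with Ptgds called higher in both. Ptgds alone stood at 165, 265 and 283 FPKM, most of each sum. Thalamic neuron markers summed to 19.2, 21.97 and 21.1 FPKM (4 of 7 and 2 of 6 higher), with Zic1 called higher in both. Dentate granule neuron markers summed to 138, 84.3 and 92.4 FPKM, with 0 of 9 higher in either condition and 6 and 4 called lower, beside 0.183% and 0.204% of all tested genes called. GABAergic neuron markers summed to 355, 394 and 402 FPKM (6 of 7 and 7 of 7 higher), and endothelial markers to 37.9, 43.0 and 43.0 FPKM, with Slco1a4 at 0.000271 FPKM in control. Glutamatergic neuron markers summed to 688, 640 and 699 FPKM (0 of 6 and 1 of 6 higher). Neuron markers summed to 908, 938 and 931 FPKM (4 of 7 and 6 of 7 higher). Astrocyte markers summed to 456, 426 and 419 FPKM (3 of 7 and 2 of 7 higher). For oligodendrocytes the sums were 768, 798 and 783 FPKM (6 of 8 higher in both), and for microglia 85.9, 86.1 and 93.6 FPKM (2 of 7 and 6 of 7 higher). Their part in the subunit values was not tested.

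Related gene groups had smaller medians than the subunits in both comparisons with control hippocampus. None of the lists that follow had a called member. The called shares of all tested genes were 0.335% in cortex, 0.183% with TRF2 in hippocampus and 0.204% with DKO over control. At shares this low, the lack of calls does not set these lists apart. Respiratory chain assembly factors (45 measured) had median log2 ratios of 0.05 in cortex, 0.02 with TRF2 in hippocampus and 0.05 with DKO over control, with 2 higher and 0 lower, 2 and 1, and 4 and 1 at a p under 0.05. For all tested genes the shares at this p in either direction were 6.81%, 5.45% and 7.48%, to be read beside the counts of this and the other lists. Bcs1l, which inserts the Rieske protein into complex III, stood at 3.90 and 6.05 FPKM with TRF2 in hippocampus (p = 0.00370) and at 4.27 and 6.67 FPKM in cortex (p = 0.00160) in the authors' deposited table. Uqcc2, another complex III assembly factor, stood at 62.2, 81.9 and 89.7 FPKM in control, TRF2 and DKO hippocampus (p = 0.0117 and 0.000250 in the authors' deposited table). Electron carriers and coenzyme Q synthesis genes (17 measured) had medians of 0.08, -0.02 and 0.04, with 1 gene at a p under 0.05 in cortex, cytochrome c (Cycs, 33.3 and 38.8 FPKM, with p = 0.0238 in the authors' deposited table), 1 with TRF2 in hippocampus (Etfa, 8.16 and 10.8 FPKM, p = 0.0270) and 0 with DKO. Pyruvate dehydrogenase and TCA cycle genes (18 measured) had medians of 0.05, 0.02 and 0.01, with 1 at a p under 0.05, Idh3b with DKO (50.2 and 63.6 FPKM, with p = 0.0469 in the authors' deposited table).

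Regulators of mitochondrial biogenesis (13 measured) had medians of -0.01, -0.10 and -0.03, with 1 member at a p under 0.05, the transcription factor Yy1, which stood lower in TRF2-depleted cortex (10.4 and 8.53 FPKM, with p = 0.0149 in the authors' deposited table). Ppargc1a, a coactivator of these genes, stood at 3.52 and 4.58 FPKM with TRF2 in hippocampus (p = 0.195 in the authors' deposited table). Glycolysis genes (16 measured) had medians of 0.06, 0.06 and 0.11 with 0 members at a p under 0.05. Cytosolic ribosomal protein genes, which are short and abundant like the subunits, had medians of -0.00, 0.07 and 0.15 over 79 measured. At a p under 0.05, 1 was higher and 2 lower in cortex, beside 2.28% and 4.6% of all tested genes. With TRF2 in hippocampus 2 were higher and 0 lower, beside 2.73% and 2.77%. With DKO 18 had a p under 0.05, all higher, beside 4.31% of all tested genes. Among them Rps20 stood at 151 and 196 FPKM in control and DKO (p = 0.00235, q = 0.372 in the authors' deposited table). Mitochondrial ribosomal protein genes had medians of 0.02, -0.00 and 0.06, over 74, 73 and 73 measured.

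**Figure D5:**
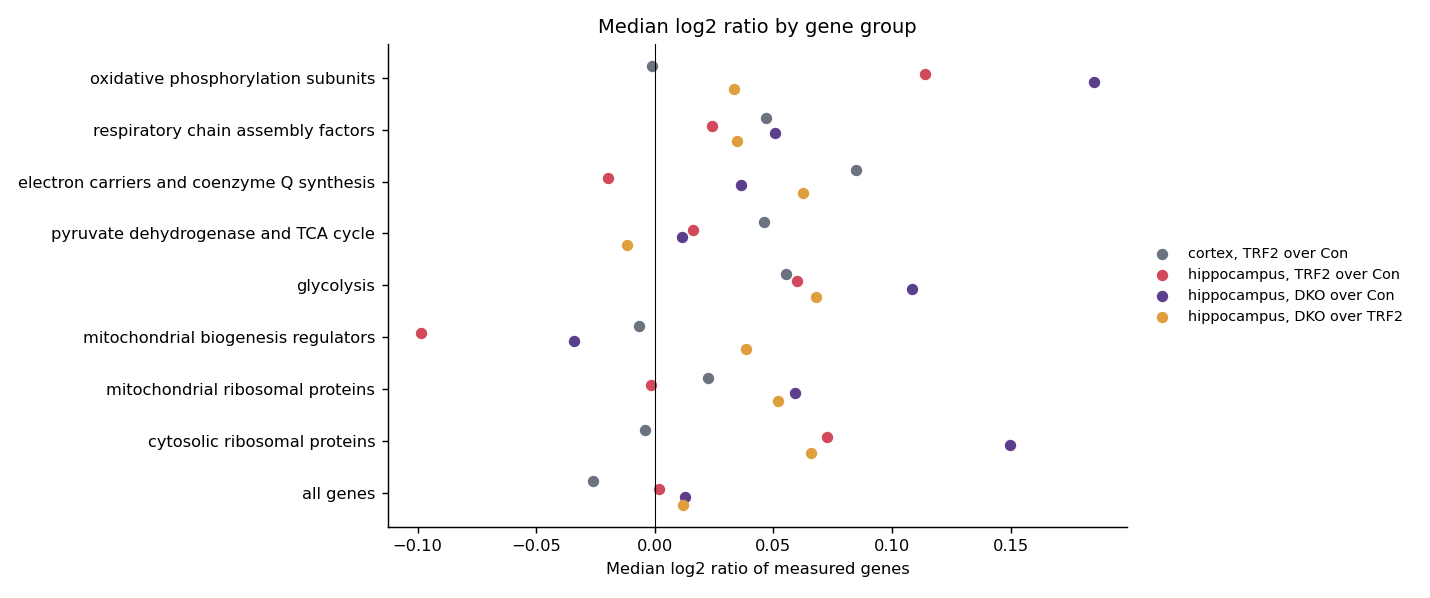
Median log2 ratio of measured genes (horizontal) for the subunits, 7 related gene groups and all genes (vertical), with 1 point per comparison. The subunits have the rightmost points for TRF2 and DKO over control in hippocampus, at 0.11 and 0.18, and cytosolic ribosomal proteins follow for DKO at 0.15.

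Promoters of 69 of the 85 members were matched by symbol in RefSeq (GRCm38.p6), each read from 250 bases before to 50 bases after the start, and searched on both strands for 4 motifs of factors known to drive respiratory genes. The palindromic core motif of NRF1 was in 5 (7.25%) against 0.977% of 27025 promoters. The letters CCGGAAG, bound by ETS factors such as GABPA, were in 15 (21.7%) against 9.12%, AAGATGGC, of YY1, in 9 (13.0%) against 2.88%, and GGGCGG, of SP1, in 29 (42.0%) against 35.9%. The GGGCGG and other motifs were counted separately and may share promoters. A match is a description of the letters and not a bound site. Shown here are the promoters of the 4 members with the smallest p with TRF2 in hippocampus, 5′ to 3′ on the gene's strand, with matches on either strand in capitals. They are Cox7c (chr13:86046746-86047045, minus strand), Ndufa1 (chrX:37191189-37191488, minus strand), Atp5l (chr9:44920693-44920992, minus strand) and Cox6a1 (chr5:115348909-115349208, minus strand).
Cox7c: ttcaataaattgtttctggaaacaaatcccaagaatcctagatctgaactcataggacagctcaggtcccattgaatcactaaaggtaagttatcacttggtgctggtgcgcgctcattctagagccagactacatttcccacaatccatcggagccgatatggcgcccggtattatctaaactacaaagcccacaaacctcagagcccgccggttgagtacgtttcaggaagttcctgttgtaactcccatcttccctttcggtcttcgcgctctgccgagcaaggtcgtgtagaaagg
Ndufa1: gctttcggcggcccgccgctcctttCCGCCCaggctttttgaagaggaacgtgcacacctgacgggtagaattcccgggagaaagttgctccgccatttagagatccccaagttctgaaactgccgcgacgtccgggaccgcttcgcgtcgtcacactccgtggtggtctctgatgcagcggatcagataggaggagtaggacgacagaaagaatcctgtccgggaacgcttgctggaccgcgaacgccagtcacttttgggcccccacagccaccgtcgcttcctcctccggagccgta
Atp5l: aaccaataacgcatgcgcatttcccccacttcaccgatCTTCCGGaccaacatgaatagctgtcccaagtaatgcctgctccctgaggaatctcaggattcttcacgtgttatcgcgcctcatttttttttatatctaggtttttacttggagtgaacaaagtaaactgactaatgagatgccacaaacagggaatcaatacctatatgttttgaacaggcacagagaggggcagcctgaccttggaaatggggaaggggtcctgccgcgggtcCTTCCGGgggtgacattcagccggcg
Cox6a1: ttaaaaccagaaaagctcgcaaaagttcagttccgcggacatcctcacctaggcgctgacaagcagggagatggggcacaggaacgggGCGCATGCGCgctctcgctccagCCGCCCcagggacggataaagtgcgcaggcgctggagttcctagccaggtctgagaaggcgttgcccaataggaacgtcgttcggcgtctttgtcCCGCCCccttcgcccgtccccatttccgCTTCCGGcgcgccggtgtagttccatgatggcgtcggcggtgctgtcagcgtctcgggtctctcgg
The Cox7c window holds none of the 4 motifs in these letters. The Ndufa1 window holds 1 SP1 match and the Atp5l window 2 ETS matches, while the Cox6a1 window holds an NRF1 match, which reads the same on both strands and is the first run in capitals, 1 ETS match and 2 SP1 matches. The 4 genes with the smallest p therefore share no single motif of those searched.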

How the data were processed

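Extraction with RNeasy columns was followed by NEBNext Ultra libraries, per the labels' protocols. Tools in the submitters' processing notes are TopHat2, Cuffdiff, Cufflinks and CASAVA 1.8, with the build mm10, and their settings are unstated in the sources used here. The deposited FPKM are pooled by condition, 1 value for each group of transcripts with the same coding sequence, per the file headers. The deposited p-value and q-value come from the authors' Cuffdiff test, per the file headers. The deposited test statistic, a score, was not analysed further.

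FPKM were summed over the rows of a gene, and log2 ratios were computed from the sums with no pseudocount. Of 91 member rows the authors tested 76 in cortex and 80 in each hippocampus comparison. The deposited loci of 11 members in cortex and 13 in hippocampus also hold other genes. For a gene with several rows (Atp5c1, Cox6b2, Cox7a2l, Ndufv2 and Ndufv3) the smallest p among its rows was taken. No test of replicates was possible, since the tables hold no value per sample, and lists are described by counts and medians. Sample groups follow the titles and source names.

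Named were members called or with a p under 0.05, the 2 most and the least abundant of each complex, the 2 largest and the 2 smallest ratios with at least 5 FPKM in a group, isoform families, and genes of other lists with the smallest p. Cox7b2, Dsp, Otx2, Penk, Aqp1 and Slco1a4 were named after their values were seen. The values of 1 member are not reported here. The members and lists were chosen with earlier results of these data known.

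Coding lengths come from GENCODE M21 (GRCm38), and pseudogene copies were sought with blastn 2.17.0 at 95% identity over 90% of the coding sequence. Calculations used Python 3.11.15, numpy 2.4.6, pandas 2.3.3 and matplotlib 3.10.9. Gene sums and log2 ratios were checked on a test table with known answers, and a p-value adjustment against a standard package. The other steps had no such check.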

Additional observations from a re-analysis of the deposited data

How the results depend on the processing

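No paired analysis was possible because the tables hold 1 pooled value per condition, and leaving out a replicate could not be run for the same reason. Alternatives for the medians were the most abundant row, a pseudocount of 1, a minimum of 5 FPKM or none, centring on all genes and scaling to equal sums. Added after seeing the data were leaving out members more than 4-fold apart between the control tables and leaving out members with a pseudogene copy. Median log2 ratios stayed between -0.01 and 0.02 in cortex, at 0.11 with TRF2 in hippocampus, between 0.16 and 0.18 with DKO over control and between 0.01 and 0.04 with DKO over TRF2. Without members that have a pseudogene copy, the called count with TRF2 in hippocampus went from 1 to 0, because Cox7c itself is left out, and the cortex count with a p under 0.05 from 5 to 3. At a q of 0.10, DKO over control went from 0 to 1 called member, Cox7c. All 38 named ratios kept their direction under 6 settings. A pseudocount or a minimum cannot change a sign, and centring and scaling shifted ratios by less than any named ratio. The count is therefore no measure of stability. Without replicate values or depth, small ratios cannot be told from sampling error.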
